A study of Mus musculus with 16 samples.

Results

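The immunoproteasome and peptide loading genes were followed across 16 MC38 tumors as a set of 10 genes, matched by symbol among the 53465 genes of the count table. They are Psmb8, Psmb9 and Psmb10 (inducible catalytic subunits of the proteasome), Psme1 and Psme2 (the subunits of the proteasome activator PA28), Tap1 and Tap2 (the peptide transporter), Tapbp (tapasin), Erap1 (a peptide-trimming peptidase of the endoplasmic reticulum) and Ubd (a ubiquitin-like modifier also called FAT10). Each symbol matched 1 identifier, and all 10 genes passed edgeR's filter on low counts, which kept 18251 genes.

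MC38 is a mouse colon carcinoma cell line, injected subcutaneously into the right flank of female C57BL/6 mice that were 6 to 8 weeks old when injected. Mice whose tumors measured 150 to 250 mm3 on day 16 were assigned at random to a control IgG or to an antibody against PD-1 (aPD-1), the receptor that restrains activated T cells, and received 200 µg on days 16 and 20. Tumors were taken on day 21, and bulk RNA-seq was done on poly(A) RNA of 100 micron sections. The groups were 8 IgG control tumors (replicates 1 to 8), 6 aPD-1 non-responder tumors (9 to 14) and 2 aPD-1 responder tumors (15 and 16), each from another mouse. The study named responders by their CD8 T cell staining on day 21, so treatment was randomised and response was not. All tumors came from 1 cell line with an intact immune system in the host, and no untreated tumor was measured.

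The proteasome cuts proteins into peptides. Under interferon gamma (Ifng), cells make Psmb8, Psmb9 and Psmb10, which take the places of the constitutive catalytic subunits Psmb5, Psmb6 and Psmb7 and yield more peptides that suit MHC class I. PA28 caps the proteasome, the Tap1 and Tap2 transporter carries peptides into the endoplasmic reticulum, Erap1 trims them and tapasin holds the class I molecule at the transporter until a peptide binds. Ubd tags proteins for breakdown and is among the genes most readily induced by interferon gamma and TNF.

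Total counts lay between 26603497 and 39948901 per tumor, and each of the 10 genes had at least 302 counts in every tumor, so counting error was small beside the spread between tumors. IgG control replicate 1 stood apart. It had the lowest total and the highest share of mitochondrial counts (7.60%), followed by non-responders 9 (6.00%) and 14 (5.73%), against 2.52% to 3.25% in the other 13 tumors. In control 3, 20.4% of counts fell on a single gene, CT010467.1, which TMM scaling offset with a factor of 0.784. Results below that rest on control 1 are given with and without it. Both responders differed from all other tumors in cell composition: Ptprc, the pan-leukocyte gene CD45, stood at 558 and 434 CPM (counts scaled to library size, with TMM factors) against 83.3 to 148 CPM in the 14 others. Summed B cell markers stood at 790 and 213 CPM against at most 5.13 CPM in the others, summed T cell markers at 241 and 221 CPM against at most 34.0 CPM, and summed fat cell markers at 1003 and 181 CPM against at most 70.1 CPM. Summed markers of lymph node stroma, high endothelial venules included (the vessels by which lymphocytes enter a node), stood at 582 and 159 CPM against at most 5.01 CPM, those of plasma cells at 503 and 396 CPM against at most 87.7 CPM and those of dendritic cells at 85.2 and 74.1 CPM against at most 19.4 CPM. Summed epithelial markers, from a list for intestinal epithelium, were at 119 and 52.0 CPM in responders. They were at 5.00 to 13.5 CPM in IgG control and non-responder tumors, low for cells labelled as colorectal carcinoma. Between responders and non-responders, 6 of 6 markers of lymph node stroma and 5 of 7 tested epithelial markers passed as higher in responders (edgeR adjusted p below 0.05), with median log2 fold changes of 6.98 and 4.30. The 5 epithelial markers were Epcam, Krt8, Krt18, Krt19 and Cdh1. Cdh17 passed as higher against controls but not against non-responders, and Krt20 and Vil1, also on the list, were not among those that passed. The tissue from which these markers came was not tested. In bulk tissue, a change in the number of cells of a type and a change in RNA per cell cannot be told apart.

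Of the 10 genes, 6 (Psmb8, Psmb9, Tap1, Tap2, Tapbp and Ubd) lie on chromosome 17 and the rest on chromosomes 8 (Psmb10), 13 (Erap1) and 14 (Psme1 and Psme2). Psmb9 (17, 34181987 to 34187764, minus strand) and Tap1 (17, 34187553 to 34197225, plus strand; GRCm38, GENCODE release 21) are transcribed away from each other and their first exons overlap, with Psmb8 (34197721 to 34201454) and Tap2 (34203527 to 34216321) next on the plus strand. Promoter windows, the 250 bases before each RefSeq start (GRCm38.p6), were found for 9 of the 10 genes, not for Tap2. They were searched on both strands together with the 50 bases after each start. The motifs sought were the interferon gamma activated site (GAS, TTCNNNGAA), the core of the interferon-stimulated response element (GAAANNGAA), a kappaB-like site (GGGNNTTCC) and a GC box (GGGCGG). A GAS match was found in 1 of 9 windows and in 7.02% of 32851 promoters, a kappaB-like match in 1 of 9 and 4.98%, the response element core in 1 of 9 (Erap1) and 7.13%, and a GC box in 5 of 9 and 32.7%. The GC box of Psmb9 and that of Tap1 are the same site, counted in both windows. Matches in genes that the results turn on, and the Erap1 match for contrast, are shown 5′ to 3′ on the plus strand. Each has 9 bases on each side where the bases before the start allow, with the matched letters in capitals.
Psmb8, GAS match, chr17:34198089-34198115: cctccgctgTTCCCAGAAgatgccccc
Tap1 and Psmb9, GC box in the interval between their starts, chr17:34187371-34187394: actgaggccCCGCCCcatcatcgc
Erap1, response element core on the minus strand, ending at the last base before the start, chr13:74639835-74639852: cggtccaccTTCACTTTC
All 250 bases before the Psmb8 start, all 250 before the Erap1 start and all 225 between the Tap1 and Psmb9 starts lie in annotated exons. The Ubd promoter, in which no annotated Ubd exon lies, is shown whole because Ubd gave the widest differences between groups. Its kappaB-like match, in capitals, has 5 bases between it and the start.
Ubd, chr17:37193642-37193891, plus strand: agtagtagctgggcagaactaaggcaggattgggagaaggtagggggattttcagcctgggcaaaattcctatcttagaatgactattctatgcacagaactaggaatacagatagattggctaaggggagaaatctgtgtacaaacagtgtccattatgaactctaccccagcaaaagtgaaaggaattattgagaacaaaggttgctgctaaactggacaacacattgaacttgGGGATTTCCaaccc
A match is a description of letters and was not measured as a site of binding.

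Levels per length were ordered in much the same way in the 3 groups. In IgG control tumors, Psme2 had the highest mean level (330 ± 55.3 CPM per kilobase of its longest principal transcript, SD, n = 8), then Psmb8 (199 ± 22.6) and Psme1 (197 ± 64.2), whose ranges overlapped. Psmb10 (138 ± 16.8) and Tapbp (93.1 ± 18.0) came next, followed by Psmb9 (55.4 ± 20.3), Tap1 (53.2 ± 10.8) and Tap2 (40.2 ± 17.1), again with overlapping ranges. Erap1 (24.2 ± 6.01) and Ubd (13.5 ± 5.12) were lowest. In both aPD-1 groups Ubd had the higher mean of this last pair, at 26.2 ± 6.53 CPM per kilobase (SD, n = 6) in non-responders, where the ranges overlapped, and at 34.3 ± 3.01 (SD, n = 2) in responders, where they did not. The inducible Psmb8 was above its constitutive counterpart Psmb5 (136 ± 15.1 CPM per kilobase) already in IgG control tumors, while Psmb9 was well below Psmb6 (216 ± 25.4).

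**Figure D1:**
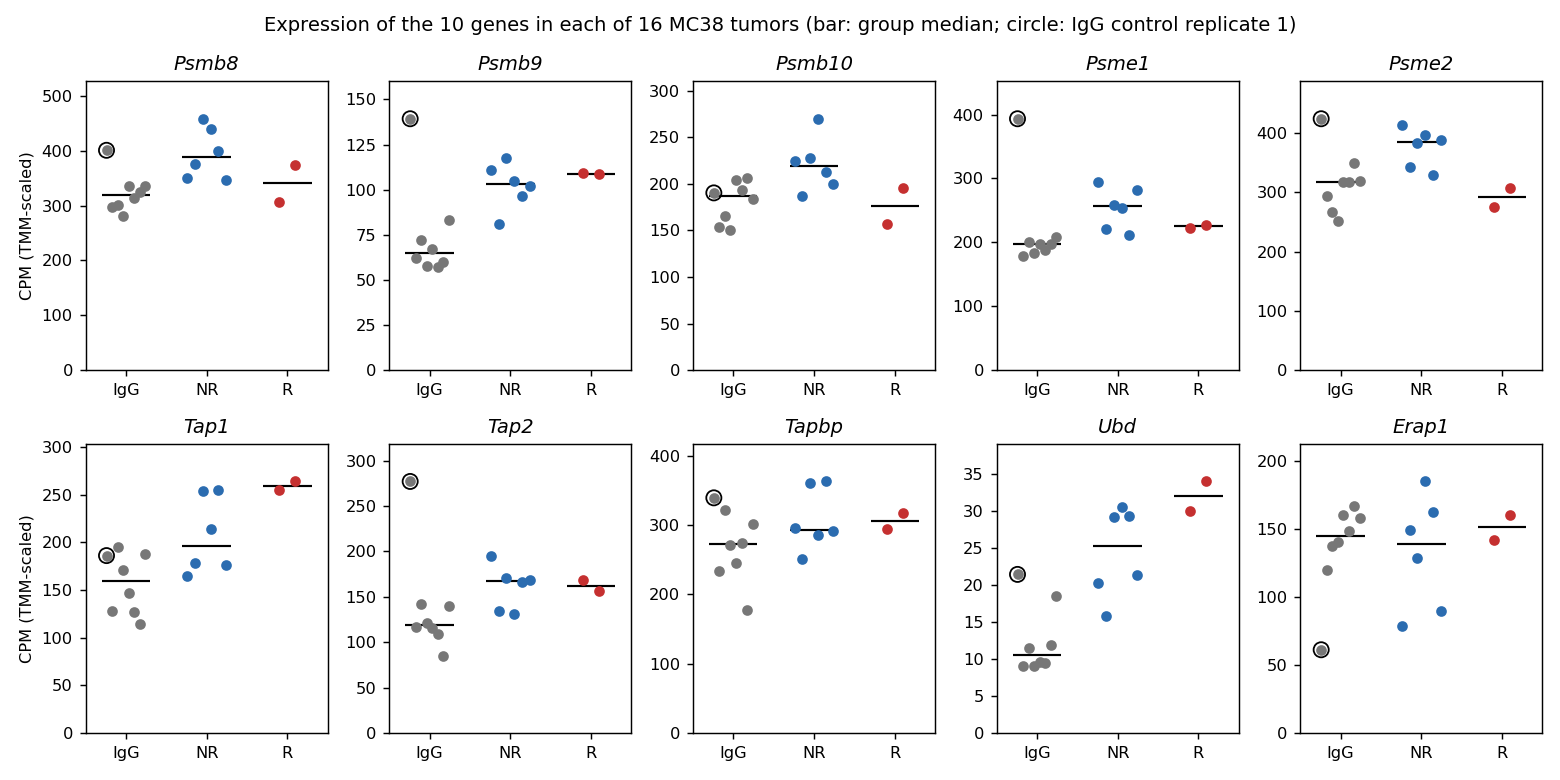
Level of each of the 10 genes in every tumor, in CPM after TMM scaling on a linear axis from 0, by group (IgG, 8 IgG control; NR, 6 aPD-1 non-responder; R, 2 aPD-1 responder tumors). Points are tumors, bars are group medians and the circled point is IgG control replicate 1, which is the highest control for Psmb9 (139 CPM), Psme1 (393 CPM) and Tap2 (277 CPM) and the lowest for Erap1 (61.1 CPM).

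The comparison of responders with non-responders asks whether these genes differ between tumors that did and did not gain CD8 T cells under the same antibody. None of the 10 passed an adjusted p of 0.05 in the edgeR test (quasi-likelihood, p adjusted by Benjamini-Hochberg), beside 15.4% of all genes tested that were higher and 4.34% that were lower in responders. None was called, that is, past that p and a log2 fold change of 1 in size, beside 12.5% higher and 0.663% lower of all genes. At an unadjusted p below 0.05 there was 1 of 10 (Psme2, lower), beside 20.8% higher and 10.4% lower of all genes, and DESeq2 also passed 0 of 10, beside 13.5% higher and 4.99% lower of all genes. In DESeq2 2 of 10 were at an unadjusted p below 0.05, both lower in responders, beside 7.15% lower of all genes. The log2 fold changes ran from -0.37 (Psme2) to 0.39 (Ubd) with a median of 0.00, against 0.02 over all genes tested. Over the same tumors Ptprc was higher in responders by 2.0 on the log2 scale (SE 0.16, edgeR adjusted p = 2.5e-07), so the marker of leukocytes moved about 4-fold while no member passed.

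Psme2, which forms PA28 with Psme1, was the 1 gene of the 10 whose responder and non-responder values did not overlap. Its level was 276 and 307 CPM in the responders, against a lowest of 330, a median of 385 and a highest of 414 CPM in the non-responders (log2 fold change -0.37, SE 0.17, edgeR adjusted p = 0.142). Both responders were low and lay inside the range of the controls (253 to 424 CPM), and 13.2% of all genes tested had both responders below every non-responder (21.5% above). Psmb10 stood at 156 and 195 CPM in responders and at 187, 219 and 270 CPM (lowest, median, highest) in non-responders (log2 fold change -0.33, SE 0.16, edgeR adjusted p = 0.177), with 1 responder inside the range of non-responders. A second gene, Psme2b, is a near copy of Psme2 and was listed at 13.2 to 22.3 CPM, so a small share of Psme2 reads may have been assigned to it or from it.

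Without the 3 tumors of highest mitochondrial share (IgG control 1 and non-responders 9 and 14), an alternative chosen after the data were seen, 2 of the 10 genes passed between responders and non-responders, both lower in responders. These were Psmb8 (log2 fold change -0.35, edgeR adjusted p = 0.0284) and Psme2 (-0.37, edgeR adjusted p = 0.0388). The same fit passed 3177 genes higher and 2626 lower in responders among 17822 genes.

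Against IgG control tumors, 2 of 10 genes rose in responders, Tap1 and Ubd, beside 17.7% of all genes tested that rose and 5.17% that fell, so the share of members was close to the background. Ubd alone also passed a log2 fold change of 1, beside 14.3% of all genes higher and 0.641% lower. Psmb9 was the third gene with an unadjusted p below 0.05, beside 22.2% higher and 11.2% lower of all genes (edgeR log2 fold change 0.54, SE 0.25, adjusted p = 0.142).

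Ubd was at 29.98 and 33.9 CPM in responders. In the controls it had a lowest level of 9.05, a median of 10.5 and a highest of 21.4 CPM, the last in replicate 1. Both responders were above all 8 controls, with a mean 2.55 times that of the controls (log2 fold change 1.35, SE 0.29, edgeR adjusted p = 0.00255). Tap1 was at 255 and 264 CPM in responders and at 114, 159 and 196 CPM (lowest, median, highest) in controls (log2 fold change 0.72, SE 0.20, edgeR adjusted p = 0.0145). Its responder values were close together and above all 8 controls, as was so for 19.3% of all genes tested (9.7% were below).

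The call for Tap1 rested on both responders: without responder 15 or without responder 16, Ubd alone passed, with 1 responder assumed to vary like the other groups. Without IgG control replicate 1, 3 genes passed (Psmb9, Tap1 and Ubd), beside 19.1% of all genes that rose, and the log2 fold change of Psmb9 was 0.67 (edgeR adjusted p = 0.00166). Without the 3 tumors of highest mitochondrial share, 4 passed (Psmb9, Tap1, Tap2 and Ubd), beside 22.0% of all genes. Tap1, Ubd and Psmb9 are measured beside the raised marker sums of responders given above. Against controls, 7 of 7 T cell, 4 of 4 B cell, 3 of 3 fat cell, 6 of 6 lymph node stroma, 5 of 5 dendritic cell, 2 of 3 plasma cell and 6 of 7 tested epithelial markers passed as higher, with median log2 fold changes of 4.07, 8.90, 5.12, 8.43, 2.73, 8.39 and 4.01. Their part in the result was not tested.

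The comparison of non-responders with IgG control tumors asks whether the antibody was followed by a change in these genes where the staining found no gain of CD8 T cells. No gene of the 18251 passed an adjusted p of 0.05 in edgeR in either direction (0% higher and 0% lower), and the smallest adjusted p among the 10 was 0.763, for Ubd. At an unadjusted p below 0.05, 6 of the 10 were higher in non-responders, beside 2.56% of all genes that were higher and 1.24% that were lower. DESeq2 likewise passed 0 of the 10, beside 0.026% of all genes that were higher (8 genes), and gave 6 higher at an unadjusted p below 0.05, beside 1.81%. In all 9 of 10 log2 fold changes were above 0, with a median of 0.26 against -0.01 over all genes tested. The 10 genes were measured in the same tumors, so they are not 10 independent observations. None of the T cell or cytotoxic markers passed in this comparison. The 7 T cell markers had log2 fold changes above 0 with a median of 0.60 (1 at an unadjusted p below 0.05), and their sum was at 12.6, 19.8 and 34.0 CPM (lowest, median, highest) in non-responders and at 7.85, 12.1 and 29.4 CPM in controls. The 5 cytotoxic markers had a median of 0.71 (1 at an unadjusted p below 0.05), and their sum was at 35.8, 63.2 and 93.1 CPM in non-responders and at 39.0 CPM (median) and at most 66.7 CPM in controls. The groups overlapped in both sums, and their part in the result was not tested.

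Ubd had the eighth smallest p of all genes tested (unadjusted p = 3.7e-04 in edgeR). It stood at 20.2, 15.8, 29.2, 30.5, 29.3 and 21.4 CPM in non-responders 9 to 14 and at 21.4, 9.05, 11.5, 9.05, 9.55, 9.39, 11.8 and 18.5 CPM in controls 1 to 8. The 6 non-responders were all above the control median, and the overlap came from controls 1 and 8 (log2 fold change 0.96, SE 0.22). Psmb9 was at 81.0, 103 and 118 CPM (lowest, median, highest) in non-responders and at 57.4, 64.7 and 139 CPM in controls, where replicate 1 was above every non-responder (log2 fold change 0.45, SE 0.18). Of the other inducible subunits, Psmb8 stood at 347, 387 and 458 CPM against 280, 319 and 401 CPM in controls (0.29, SE 0.10), and Psmb10 at 187, 219 and 270 CPM against 151, 187 and 207 CPM (0.28, SE 0.10). Each of these groups overlapped, as they did for all 10 genes, and 0.0164% of all genes tested had every non-responder above and 0.0219% every non-responder below every control.

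Tap1 had a lowest level of 165, a median of 196 and a highest of 255 CPM in non-responders, against 114, 159 and 196 CPM in controls (log2 fold change 0.40, SE 0.14). Psme2 was at 330, 385 and 414 CPM against 253, 318 and 424 CPM (0.24, SE 0.11). These complete the 6 genes. Psme1, Tap2 and Tapbp had log2 fold changes of 0.22, 0.22 and 0.19 with SEs of 0.16, 0.20 and 0.13 and did not reach an unadjusted p of 0.05.

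Without IgG control replicate 1, 2 of the 10 passed and were higher in non-responders, Psmb9 (log2 fold change 0.65, SE 0.10, edgeR adjusted p = 0.0310) and Ubd (1.12, SE 0.18, edgeR adjusted p = 0.0395), beside 0.0387% of all genes, which was 7 genes. At an unadjusted p below 0.05, 8 of the 10 were then higher, beside 9.80% of all genes. All 6 non-responders were then above the 7 remaining controls for Psmb8 and Psme1, beside 0.318% of all genes. For Psme1 those controls reached 179 to 209 CPM and the non-responders 212 to 295 CPM. Without the 3 tumors of highest mitochondrial share none of the 10 passed (edgeR adjusted p = 0.101 for both Psmb9 and Ubd), and 8 had an unadjusted p below 0.05, beside 4.95% of all genes that were higher.

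**Figure D2:**
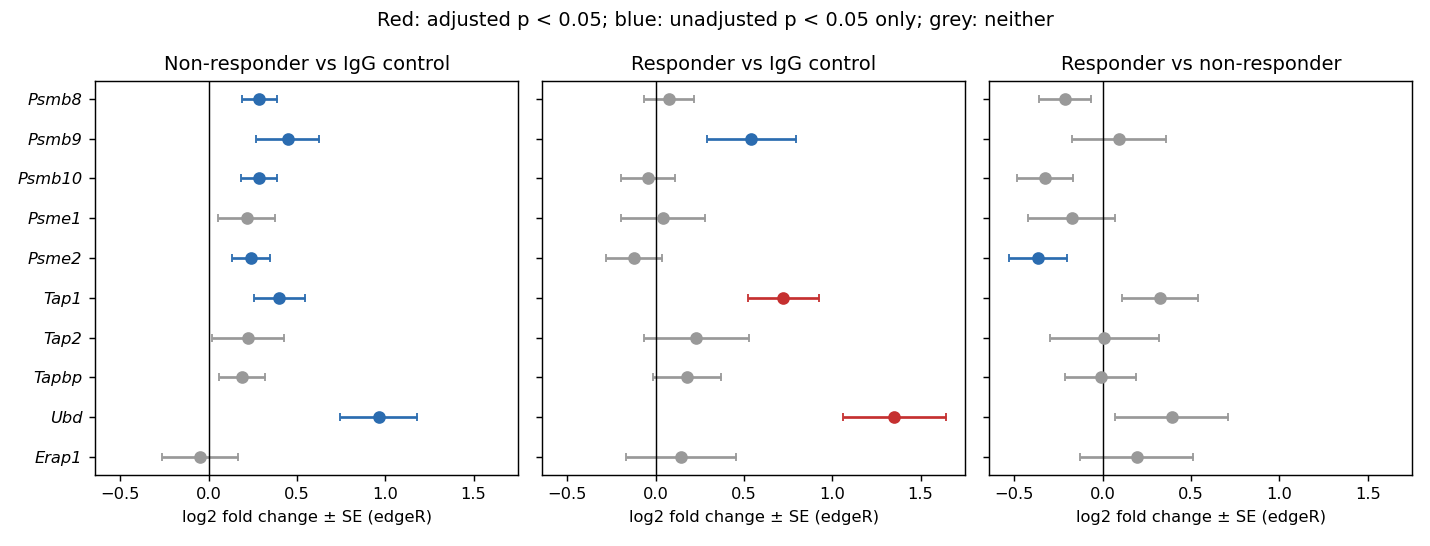
The log2 fold change of each gene with its SE from edgeR in 3 comparisons, which share tumors. Red points passed an adjusted p of 0.05 (Tap1 and Ubd, responder against IgG control), and grey points passed neither threshold. Blue points had only an unadjusted p below 0.05. They are 6 genes in non-responders against IgG control, Psmb9 in responders against IgG control and Psme2 in responders against non-responders.

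Treatment as assigned, 8 aPD-1 against 8 IgG control tumors in a fit of their own (15775 genes), again passed no gene at an adjusted p of 0.05 in edgeR (0% higher and 0% lower). At an unadjusted p below 0.05, 4 of the 10 were higher under aPD-1 (Psmb8, Psmb9, Tap1 and Ubd), beside 9.17% higher and 2.23% lower of all genes. The 8 aPD-1 tumors were above all 8 controls for none of the 10 and for 0.019% of all genes. All 10 log2 fold changes were above 0 with a median of 0.22. Ubd had the fourth smallest p of all genes (log2 fold change 1.08, SE 0.21, unadjusted p = 9.2e-05, adjusted p = 0.223), and in DESeq2 it passed (log2 fold change 1.06, adjusted p = 0.00337), alone among the 10, beside 0.688% of all genes that were higher and 0.0159% that were lower in DESeq2. Without IgG control replicate 1, Psmb9 (log2 fold change 0.67) and Ubd (1.23) passed in edgeR, both at an adjusted p of 0.0382, beside 0.044% of all genes.

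Among the controls, replicate 1 had the highest control level of Psmb8, Psmb9, Psme1, Psme2, Tap2, Tapbp and Ubd, and control 8 was second for Psmb9 (83.3 CPM) and Ubd (18.5 CPM). Ifng was at 1.63 and 1.97 CPM in these controls and at 0.360 to 0.703 CPM in the other 6.

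**Figure D3:**
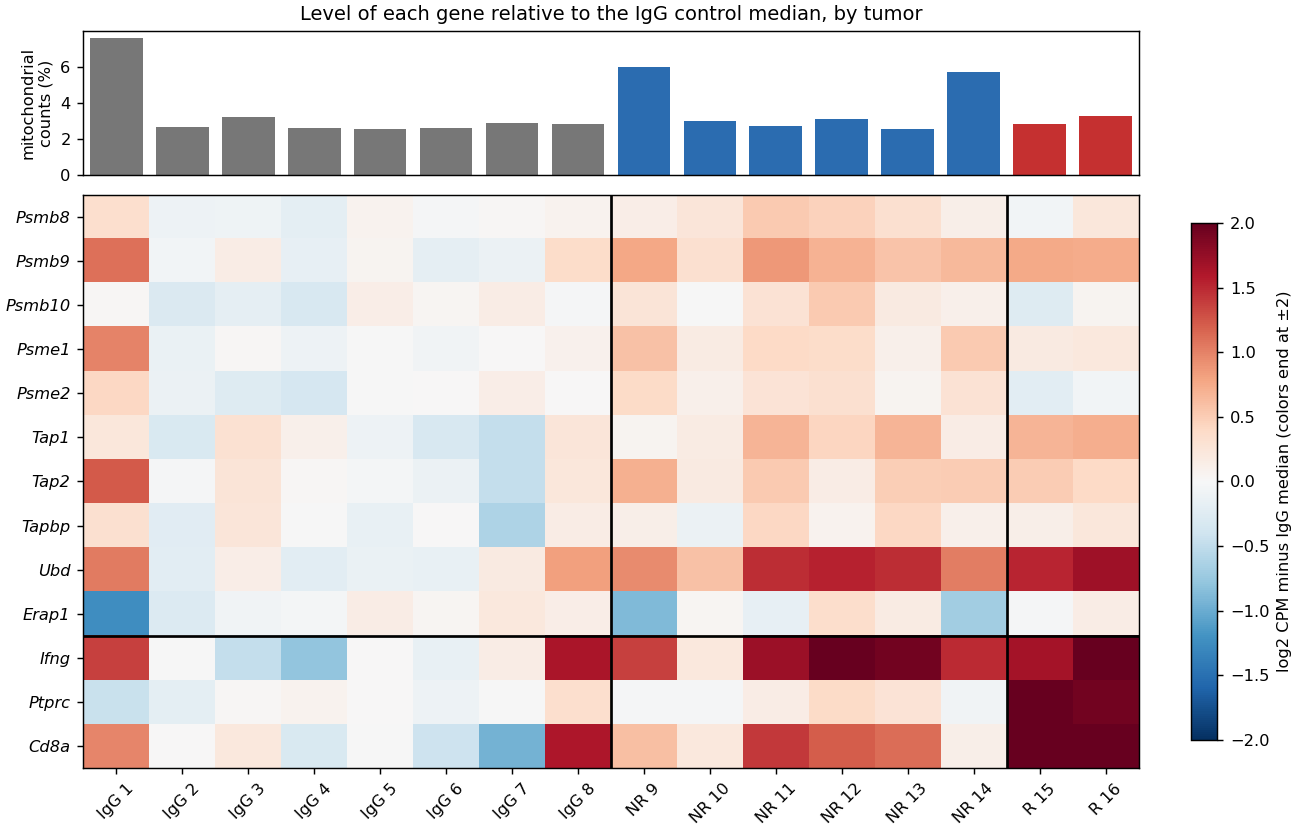
Heat map of log2 CPM minus the IgG control median for the 10 genes and, below the line, for Ifng, Ptprc and Cd8a, in all 16 tumors, with the mitochondrial share of counts (%) as bars above. IgG control replicate 1 is above the other controls in Psmb9 and Ubd, Erap1 is low in the 3 tumors with 5.73% to 7.60% mitochondrial counts, and Ptprc is high only in the 2 responders.

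Erap1 went its own way. Its level was 61.1, 144 and 167 CPM (lowest, median, highest) in controls, 78.7, 139 and 185 CPM in non-responders and 142 and 161 CPM in responders, and no comparison passed. The 3 tumors of highest mitochondrial share had the 3 lowest levels, 61.1 to 89.4 CPM, against 120 to 185 CPM in the other 13. The part of RNA quality in this was not tested. The Erap1 gene overlaps exons of Cast on the opposite strand, which had 4374 to 8786 counts, and whether the strand was used in counting is not given in the sources used here, so some Erap1 reads could stem from Cast. The same limit holds for Psmb9 against Tap1, for Psme1 against Emc9 (66 to 256 counts) and, on the same strand, for Tapbp against Zbtb22 (461 to 868 counts).

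The inducible subunits were next set against the constitutive subunits they replace, within each tumor, as log2 ratios of counts, which do not depend on scaling between tumors. Over 5 ratios and 3 comparisons (15 exact permutation tests, two-sided), none passed an adjusted p of 0.05, the smallest being 0.0966. With 2 responders the exact test cannot go below p = 0.0357 against 6 tumors or p = 0.0222 against 8.

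Psmb8 to Psmb5 was at 1.85 and 1.90 in responders, at 1.51, 1.66 and 1.82 (lowest, median, highest) in non-responders and at 1.18, 1.41 and 1.67 in controls. Both responders were above every other tumor (exact permutation p = 0.0714 against non-responders and p = 0.0222 against controls). Non-responders and controls overlapped, with means of 1.66 ± 0.12 (SD, n = 6) and 1.41 ± 0.17 (SD, n = 8; exact permutation p = 0.0113). Psmb9 to Psmb6 was at -0.38 and -0.16 in responders, at -1.12, -0.77 and -0.67 in non-responders and at -1.78, -1.35 and -0.45 in controls. Its responders were also above every other tumor (exact permutation p = 0.0357 against non-responders and p = 0.0222 against controls), and non-responders against controls had an exact permutation p of 0.0386. Psmb10 to Psmb7 had group means of 0.21, 0.21 and -0.04 in responders, non-responders and controls, with overlap throughout.

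Both parts of the ratios were then read singly. Psmb5 (log2 fold change -0.42, SE 0.13, edgeR adjusted p = 0.0346) and Psmb6 (-0.45, SE 0.14, edgeR adjusted p = 0.0304) fell in responders against non-responders, while Psmb8 (-0.21, SE 0.15) and Psmb9 (0.09, SE 0.27) did not pass in that comparison. Against controls Psmb5 (log2 fold change -0.39, SE 0.13, edgeR adjusted p = 0.0382) and Psmb6 (-0.39, SE 0.13, edgeR adjusted p = 0.0492) also fell, while Psmb8 (0.08, SE 0.14) and Psmb9 (0.54, SE 0.25) did not pass. Without IgG control replicate 1, the difference between non-responders and controls passed for Psmb8 to Psmb5 (0.29) and for Psmb9 to Psmb6 (0.55), both at an adjusted exact permutation p of 0.0306.

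Within PA28, Psme1 to Psme2 stood at -0.43 and -0.31 in responders against -0.65, -0.60 and -0.46 in non-responders (exact permutation p = 0.0357, adjusted p = 0.0966), with the responders apart from non-responders but inside the range of controls (-0.83 to -0.11). Tap1 to Tap2 was at 0.60 and 0.75 in responders, at -0.24, 0.49 and 0.70 in non-responders and at -0.57, 0.38 and 0.50 in controls, with no exact permutation p below 0.178. The low values, in control 1 and non-responder 9, came from tumors of high mitochondrial share, which had the highest Tap2 levels of their groups.

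**Figure D4:**
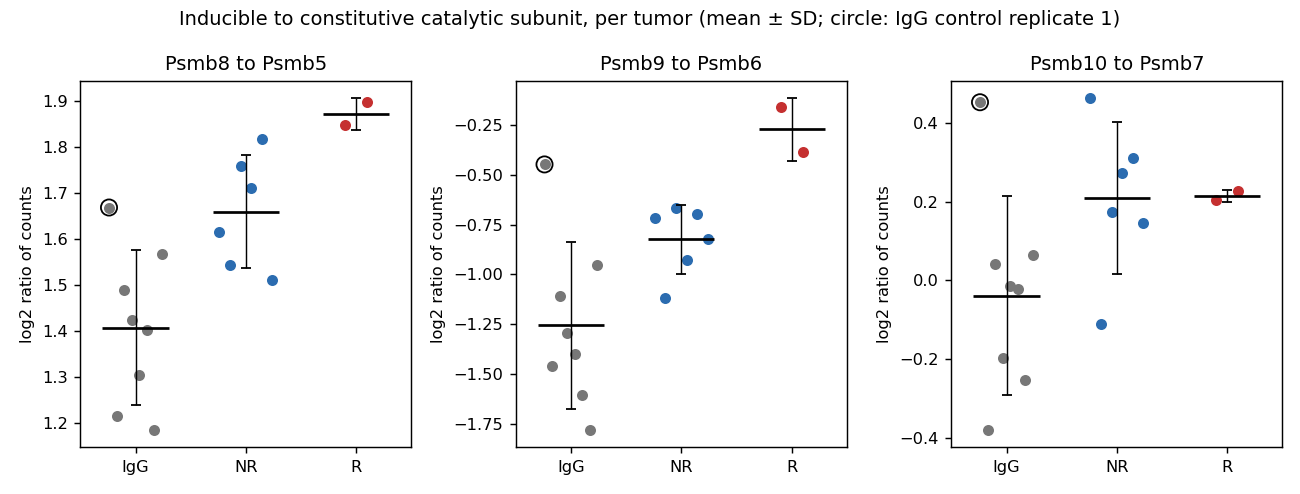
Log2 ratio of counts of each inducible catalytic subunit to the constitutive subunit it replaces, per tumor, with the group mean and SD and IgG control replicate 1 circled; the axes do not start at 0. Both responders lie above all other tumors for Psmb8 to Psmb5 (1.85 and 1.90) and Psmb9 to Psmb6 (-0.38 and -0.16), and not for Psmb10 to Psmb7.

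The rest of the pathway was described from 6 lists of 61 genes, all of which were tested. Between responders and non-responders, 0 of the 3 constitutive catalytic subunits passed as higher and 2 as lower, beside 15.4% higher and 4.34% lower of all genes tested. Of 11 other subunits of the 20S core, 3 fell in responders, Psma7 (log2 fold change -0.59), Psmb3 (-0.57) and Psma3 (-0.37), and the median of the 11 was -0.32. Of 17 subunits of the 19S regulator 1 fell (Psmd4, -0.35), with a median of -0.23, and of 8 assembly factors and other activators 1 fell (Psmg3, a chaperone of core assembly, -0.48), with a median of -0.29. None of these 39 genes rose, and the median over all genes tested was 0.02. Between non-responders and controls none passed, and the medians were 0.03, 0.02, -0.07 and -0.01 in the same order.

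Among 9 other genes of the loading complex and peptidases, Thop1, a cytosolic peptidase that degrades peptides, fell in responders against non-responders (log2 fold change -0.52, edgeR adjusted p = 0.0054) and against controls (-0.60, edgeR adjusted p = 0.00108), and no other passed. B2m, the light chain of MHC class I, had a log2 fold change of 0.44 (SE 0.14, unadjusted p = 0.00507 in edgeR, adjusted p = 0.987) in non-responders against controls.

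Of 13 genes of the interferon gamma pathway and class I regulation, 8 rose in responders against controls, beside 17.7% of all genes tested. They include Ifng itself (log2 fold change 2.44, SE 0.55, edgeR adjusted p = 0.00335) and Nlrc5, the transactivator of class I genes (0.93, SE 0.24, edgeR adjusted p = 0.0102). Ifng stood at 2.01 CPM in responder 15 and at 7.40 CPM in responder 16, against at most 1.97 CPM in controls and 0.729 to 3.37 CPM in non-responders. Responder 15 was thus close to the highest control and inside the range of non-responders. Against non-responders 4 rose (Ifngr1, Jak1, Jak2 and Rfx5), beside 15.4% of all genes, and Ifng and Nlrc5 did not pass (log2 fold changes 1.23 and 0.47, SEs 0.60 and 0.26). Between non-responders and controls 0 of 13 passed, and 4 had an unadjusted p below 0.05, all higher (beside 2.56% of all genes), among them Ifng (1.21), Nlrc5 (0.46) and Irf1 (0.39).

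How the genes tracked Ifng, Cd8a (a CD8 T cell gene) and Ptprc was examined over the 14 tumors other than responders, whose own levels would have set any coefficient. Ifng was at few counts, 12 to 133 per tumor. Its levels fell into 2 sets, 7 tumors at 0.360 to 0.729 CPM (6 controls and non-responder 10) and 7 tumors at 1.63 to 3.37 CPM (controls 1 and 8 and 5 non-responders), with a gap of 1.10 on the log2 scale. No pooled coefficient is therefore given for Ifng. Within the sets, 0 of 20 relations passed an adjusted p of 0.05 (exact permutation tests over 7 tumors each). The closest were Psme2 in the lower set (Pearson's r = 0.937, rho 0.857, adjusted exact permutation p = 0.0556) and Erap1 in the upper (r = 0.835, rho 0.964, adjusted exact permutation p = 0.123). For Ubd r was 0.478 (rho 0.643, adjusted exact permutation p = 0.454) in the lower set and 0.766 (rho 0.679, adjusted exact permutation p = 0.174) in the upper. Pearson's r was above 0 for 7 of the 10 genes in the lower set and for 5 in the upper. Over the 14 tumors together, where the gap between the sets bears on any coefficient, 7 of 10 relations passed. Within the 6 non-responders, 5 of them in the upper set, r for Ubd was 0.925 (exact permutation p = 0.00139, rho = 1.00, adjusted p = 0.0833 over 60 relations). Within the 8 controls, of which controls 1 and 8 are in the upper set, it was 0.898 (exact permutation p = 0.0152, rho = 0.738, adjusted p = 0.227), and r for Psmb8 was 0.799 (exact permutation p = 0.0118, rho = 0.881, adjusted p = 0.227).

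**Figure D5:**
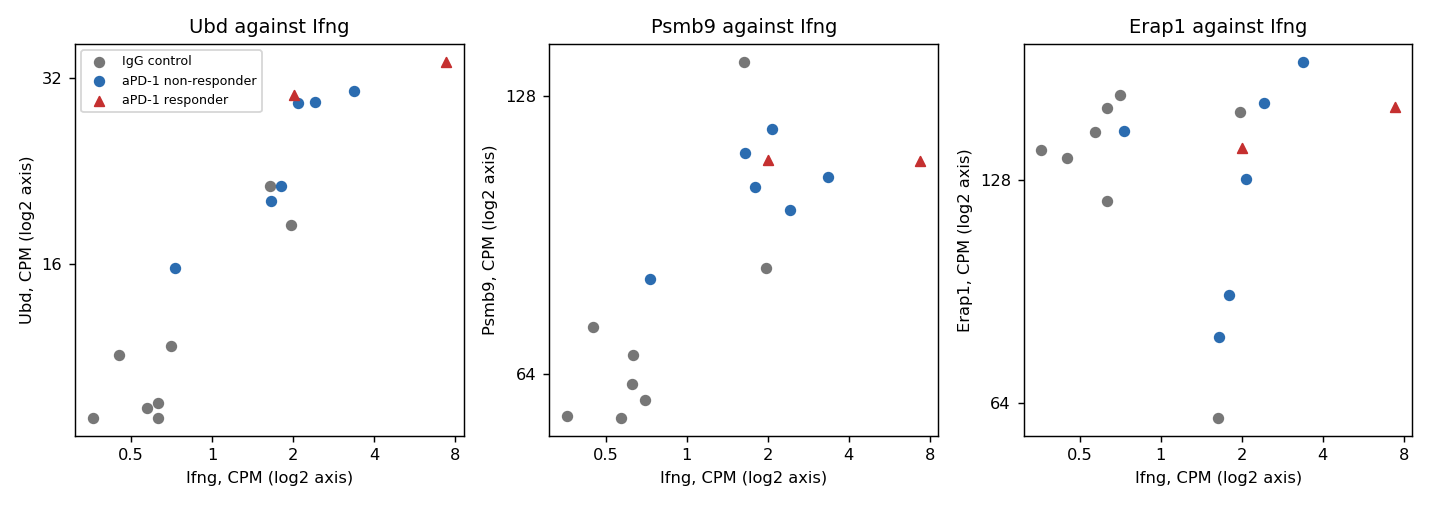
Levels of Ubd, Psmb9 and Erap1 against Ifng in each tumor, in CPM on log2 axes, by group. Ifng leaves a gap between 0.729 and 1.63 CPM, Ubd is at 21.4 CPM or lower in IgG control tumors and at 29.98 and 33.9 CPM in the responders, and Erap1 is lowest in a control with 1.63 CPM of Ifng.

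Cd8a, at 1.94 to 11.5 CPM in these 14 tumors, showed no such gap. Over 10 relations, 6 passed an adjusted permutation p of 0.05 on Pearson's r (100000 permutations, adjusted over 30 relations). For this count and those for Ifng and Ptprc, the share of all genes tested that relate as closely is not given. These counts can therefore not be set against a background. The closest were Tap1 (r = 0.814, permutation p = 4.1e-04, rho = 0.842, permutation p = 3.3e-04, adjusted p = 0.0045 on r) and Ubd (r = 0.793, permutation p = 0.00105, rho = 0.758, permutation p = 0.00239, adjusted p = 0.00557 on r), followed by Tapbp (r = 0.762), Psmb9 (0.753), Psmb8 (0.702) and Tap2 (0.631). Without control 8 and non-responder 11, the tumors farthest from the median of Cd8a, r was 0.837 for Tap1 and 0.818 for Ubd. Without control 1, r for the 6 genes was 0.671 to 0.818. Within the 8 controls r was 0.743 for Tap1 (exact permutation p = 0.0298, rho = 0.833) and 0.770 for Ubd (exact permutation p = 0.0292, rho = 0.452). Controls 1 and 8 had the highest control levels of both Cd8a and Ubd. Within the 6 non-responders r was 0.853 for Tap1 (exact permutation p = 0.0569, rho = 0.657) and 0.882 for Ubd (exact permutation p = 0.0472, rho = 0.657). Tap2 had r = -0.01 within the 6 non-responders. None of these relations within a group passed an adjusted p of 0.05 over 60 relations.

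For Ptprc 1 of 10 relations passed on Pearson's r, that of Erap1 (r = 0.712, permutation p = 0.00389, adjusted p = 0.0117, and rho = 0.626, permutation p = 0.0190, adjusted p = 0.0380). On Spearman's rho 2 of 10 passed, those of Erap1 and Tap1. For Tap1 rho was 0.609 (permutation p = 0.0239, adjusted p = 0.0448) and r was 0.490 (permutation p = 0.0740, adjusted p = 0.131). Without control 1 and non-responder 12, the farthest tumors, r for Erap1 fell to 0.384, so the Erap1 relation rested on those tumors. For Tap1 r was then 0.694. Control 1 had both the lowest Ptprc (83.3 CPM) and the lowest Erap1 level. Without control 1 alone, r for Erap1 was 0.499, and r went from 0.39 to 0.67 for Ubd, from 0.49 to 0.70 for Tap1, from 0.26 to 0.57 for Psmb8 and from -0.01 to 0.47 for Psmb9.

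The genes most like 3 of the members were found by Pearson's r of log2 CPM over the same 14 tumors among the 13927 genes averaging 1 CPM or more, as a description, since all genes of a tumor share its library and its cell composition. Those of Psmb9 were Irf1 (r = 0.974), Socs1 (0.963), Acap1 (0.951), Irf5 (0.950) and Gbp8 (0.945). Those of Tap1 included H2-K1 (0.957), Ass1 (0.943), H2-D1 (0.930) and Cd274 (0.918), of which H2-K1 and H2-D1 are heavy chains of MHC class I and Cd274 is the ligand PD-L1. Those of Ubd were Apol6 (0.966), Ly6a (0.965), Il18bp (0.964), Iigp1 (0.960) and Igtp (0.959), the last 2 being interferon-induced GTPases.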

How the data were processed

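Bulk RNA-seq of 16 tumors was analysed. Reads were aligned by the authors to GRCm38 (STAR 2.6), and RSEM 1.3.0 with Ensembl 91 genes gave the expected counts, which the authors deposited without normalization. Of the values, 7.83% were not whole, and all were rounded to whole counts here. A further 92 entries that name no gene (at most 185 counts per tumor) were left out. Tumors were fitted together in edgeR 4.0.16 (R 4.3.3) with TMM factors, the package's own low-count filter and robust quasi-likelihood tests, with Benjamini-Hochberg adjustment over all genes tested, at an adjusted p of 0.05 and, for calls, a log2 fold change above 1 in size. Treatment (8 against 8) was a separate fit. P-values measure the spread between tumors. Log2 CPM used a prior count of 2. Depths of 26603497 to 39948901 counts leave the spread between tumors as the main error.

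Ratios were compared by exact permutation tests, and correlations used 100000 permutations or, under 10 tumors, all orders (Python 3.11.15, scipy 1.17.1). The correlations with Ifng were planned over 14 tumors and were given within the 2 sets of tumors instead, a choice made after its levels were seen; values within the control and non-responder groups were adjusted over 60 relations. The steps were tested on simulated counts. GENCODE mouse release 21 gave symbols and coordinates, and RefSeq (GRCm38.p6) gave promoter sequences.

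The genes named are all 10 members, Psmb5, Psmb6, Psmb7, Ifng, Ptprc, Cd8a, Irf1 and Nlrc5, the 3 genes of smallest p between responders and non-responders in each of 6 pathway lists, and the 5 genes most like Psmb9, Tap1 and Ubd. Other genes of these lists that passed, B2m, overlapping genes and the single epithelial markers were chosen for naming after the results were known. The members and the lists were chosen with earlier results of these data known. The alternatives were DESeq2 1.42.0, median-of-ratios size factors, no filter, a minimum of 10 counts in 8 tumors or more, fits of 2 groups alone and, 1 at a time, each tumor left out. Leaving out 3 tumors of high mitochondrial share was added after the data were seen. Of the genes so named, 1 is not reported here. Spatial transcriptomics and staining were not analysed here.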

Additional observations from a re-analysis of the deposited data

Results flagged for a closer look

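In groups of 4 to 10 tumors, the highest or lowest tumor was compared with the others by the gap to its neighbour over the range of the group (Dixon's ratio). Of 30 such tests on the 10 genes and 5 ratios in the IgG control and non-responder groups, 5 passed the 95% critical value, where chance gives about 1 in 20, and all 5 were IgG control replicate 1. The tests share tumors, and the ratio of Tap1 to Tap2 contains Tap2, so the 5 are not independent observations. It was the highest of 8 controls for Psmb9 (ratio 0.580), Psme1 (0.803) and Tap2 (0.566) and the lowest for Erap1 (0.673) and for the log2 ratio of Tap1 to Tap2 (0.668). This tumor also had the highest mitochondrial share (7.60%) and the lowest Ptprc level (83.3 CPM) of all tumors. The part of either in these values was not tested.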

How the results depend on the processing

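Between responders and non-responders, 0 of 10 genes passed and 0 were called with DESeq2, other size factors, other filters, fewer groups or any 1 tumor left out, and 2 passed without the 3 tumors of highest mitochondrial share. Against IgG control, 4 passed in responders without those tumors, and 2 to 3 when each control was left out in turn, beside 16.6% to 19.1% of all genes that rose. Between non-responders and IgG control, leaving out each tumor gave 0 to 2 passed and 0 to 1 called, and for all aPD-1 against IgG control it gave 0 to 2 and 0 to 1, the highest each time without IgG control replicate 1. DESeq2 gave 1 passed and 1 called for all aPD-1 against IgG control. Of the 15 ratios, 0 to 2 passed when each tumor was left out. Signs of small log2 fold changes turned. Between responders and non-responders, Tap2 went to -0.035 with no filter and -0.028 with only both groups compared, Tapbp to 0.0093 with at least 10 counts in 8 tumors and Erap1 to -0.10 without the 3 tumors. Erap1 without them was -0.018 in responders and 0.085 in non-responders against IgG control, and for all aPD-1 it was -0.0018 with DESeq2 and -0.0014 with no filter. Leaving out each tumor gave ranges of -0.10 to 0.10 (Erap1, all aPD-1 against IgG control), -0.17 to 0.065 (Erap1, non-responder against IgG control), -0.020 to 0.19 (Erap1), -0.27 to 0.035 (Psmb10), -0.13 to 0.14 (Psmb8) and -0.033 to 0.16 (Psme1), the last 4 in responders against IgG control, and of -0.032 to 0.14 (Psmb9), -0.11 to 0.073 (Tap2) and -0.13 to 0.043 (Tapbp) in responders against non-responders. The cause was not tested. No paired analysis was possible because the labels number the tumors 1 to 16 and the groups share no number. Depth limited Ifng, at 12 to 133 counts per tumor outside the responders, and none of the 10 genes.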
